A study of Mus musculus with 4 samples.

Results

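In the tumor-draining lymph node (TdLN), a small set of CD8 T cells carried transcripts of Sox4, Myb, Hdac9, Tubb2b, Kcnc1 and Pde2a together, and 1396 of 43971 kept barcodes belonged to it. A barcode was a member when it had Cd3e or Cd3d, Cd8a or Cd8b1, and at least 3 of the 6 genes with 1 or more unique molecular identifiers (UMIs, each standing for 1 captured transcript). It also had to have no Trdc, H2-Aa or Mki67 and at most 2 UMIs of Gzma and Gzmb summed. The other CD8 T cells in this report passed the same gates with fewer than 3 of the 6 genes, and there were 29303 of them. The members were thus selected on the measured UMIs of the 6 genes and of the gate genes, and every difference between members and other cells is given as a description with no test. The name stands for these genes and for no known cell type.

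Cells were sorted as CD8+ PD-1+ CD44+ from the TdLN of female C57BL/6 mice that were purchased at 6 weeks of age. The mice carried B16F10GP melanoma on both flanks, a B16F10 line that makes a viral glycoprotein as a model antigen. The groups were RT + αPD-L1 (the right tumor irradiated and an antibody against PD-L1 given), RT alone and αPD-L1 alone, each 7 days after treatment and untreated Control. Each group was 1 library of 5 mice told apart by hashtag antibodies, so the mouse was the replicate and treatment cannot be told apart from library. The radiation schedule of these mice, and whether sorted naive cells of untreated mice entered the Control library, are not given in the sources used here.

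SOX4 and MYB are transcription factors that act in early lymphoid development, and MYB also sustains self-renewing, TCF-1-positive CD8 T cells in chronic infection. HDAC9 is a class IIa histone deacetylase that represses MEF2 targets, TUBB2B is a β-tubulin best known from neurons, KCNC1 is a voltage-gated potassium channel and PDE2A degrades cyclic nucleotides. EOMES, which the selection did not use, is a T-box factor of memory and of chronically stimulated CD8 T cells. On mm10, Hdac9 (ENSMUSG00000004698) lies on chromosome 12 from 34047580 to 34917095, Myb (ENSMUSG00000019982) on chromosome 10 from 21124935 to 21160984, Sox4 (ENSMUSG00000076431) on chromosome 13 from 28948919 to 28953713, and Eomes (ENSMUSG00000032446) on chromosome 9 from 118478212 to 118486132.

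Libraries had 10157 to 12285 kept barcodes with medians of 6437 to 7040.5 UMIs, and pairs of libraries shared 135 to 196 barcode sequences. Hashtags gave 39175 barcodes to 1 mouse and marked 7.42% to 8.85% per library with several. Members were deeper than other CD8 T cells (median 8164.5 against 6172 UMIs), more often had several hashtags (15.8% against 6.93%), and more often exceeded 15000 UMIs (11.5% against 4.74%). Thinned to 3000 UMIs each, they had medians of 1337 and 1300 genes. The part of depth and of mixed barcodes in the results was not tested beyond the settings given beside each result. Detection shares, overlaps and V segments are over all members, and every value per mouse is over the 1168 members with exactly 1 hashtag. These came as 172 cells from RT + αPD-L1, 354 from RT, 321 from αPD-L1 and 321 from Control.

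The members were not uniform, and most sat at the edge of the rule. Exactly 3 of the 6 genes were detected in 848 members, 4 in 338, 5 in 152 and all 6 in 58, while 3089 gated cells just outside the rule had 2. Myb was the most widely detected of the 6, in 96.1% of members and 24% of other CD8 T cells. Sox4 was in 71.2% against 11.7%, Kcnc1 in 57.3% against 3.45%, Pde2a in 54.9% against 11.8%, Hdac9 in 41.4% against 1.21%, and Tubb2b in 37.5% against 1.39%. The commonest combination of 3 was Sox4, Myb and Kcnc1, which made up 11.7% of the members. In 126 dendritic cell barcodes (median 7618.5 UMIs), which served as a guide to free RNA, Hdac9 was in 1.59%, Myb in 15.1%, Sox4 in 21.4%, Tubb2b in 30.2%, Kcnc1 in 1.59% and Pde2a in 0%. In 42 B cell barcodes (median 2943 UMIs) Hdac9 was in 9.52%, Sox4 in 7.14%, Pde2a in 11.9% and the other 3 genes in 0%. For Hdac9, Sox4, Tubb2b and Pde2a the share in other CD8 T cells was thus at or below that in one of these cell types. For Sox4, Tubb2b and Pde2a it was above that in the other cell type. These cell types may carry such transcripts of their own, and the part of free RNA was not tested.

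Each cell with at least 3000 UMIs was thinned to 3000, and the gates were then applied to the thinned UMIs. Cells that failed a gate with all UMIs could thus enter. In the cells that passed, the 6 genes still turned up together. Hdac9 was detected in 0.476% of the 22492 cells with none of the other 5 genes, in 2.43% of those with 1, in 7.41% with 2, and in 34.6% of the 338 cells with 3 or more. Myb went the same way over these classes, at 12.8%, 23.6%, 43.1% and 82.1%. Eomes, outside the rule, was detected in 9.02% of cells with none of the 6 genes, in 14.8% with 1, in 22.9% with 2 and in 43.2% of the 440 cells with 3 or more. Eomes was in 0.794% of the dendritic cell barcodes before thinning.

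Levels of genes outside the rule changed with the number of the 6 genes detected, and did so on both sides of the threshold. Summed over the gated cells of a class with 1 hashtag, Il10ra (a chain of the IL-10 receptor) stood at 30.3 CPM (UMIs of a gene scaled to the same total of all UMIs) in cells with none of the 6 genes, 58.6 with 2, 129.9 with 3 and 521 with all 6. Eomes stood at 33.2, 103.3, 171 and 407.3 CPM in the same 4 classes. Going the other way, Cd8b1 and Cd8a, the coreceptor chains, were lower in each class: Cd8b1 had 1451 CPM with none, 993.8 with 2, 774.8 with 3 and 354.9 with all 6, and Cd8a had 794.9, 609.4, 436.8 and 213.9. Il7r, the IL-7 receptor that sustains naive and memory cells, was at 231.6 CPM with none, 112.2 with 2, 64.5 with 3 and 6.8 with all 6. Cells just inside and just outside the threshold thus differed by degree in these genes.

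**Figure D1:**
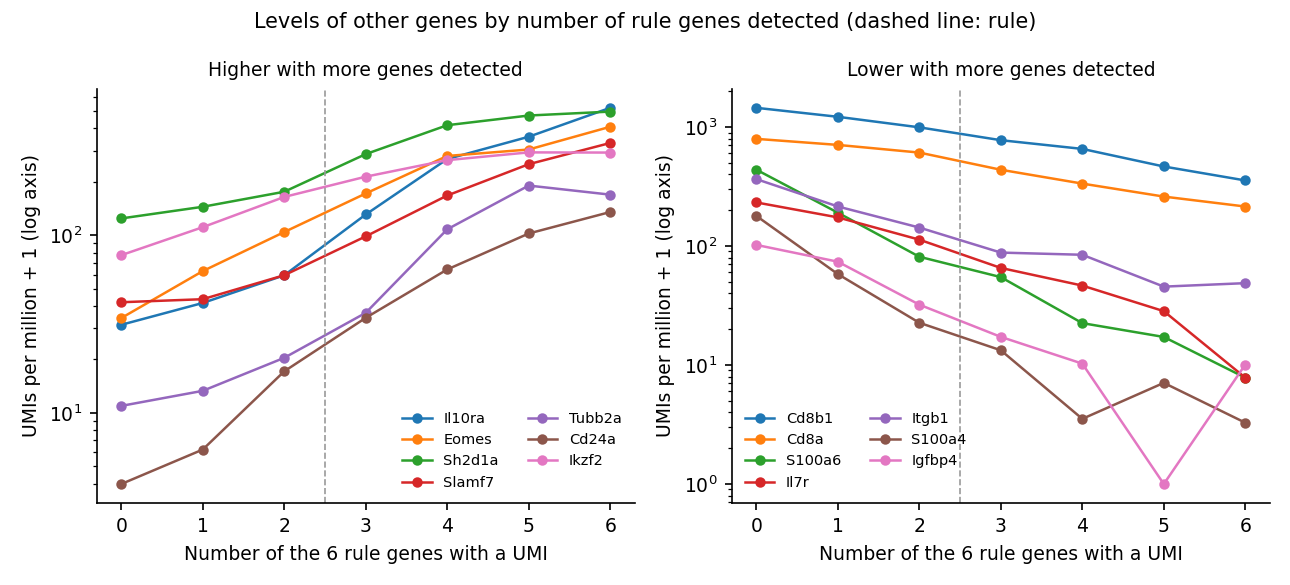
Levels of 14 genes (CPM + 1, log axis) in gated CD8 T cells with 1 hashtag with 0 to 6 of the 6 rule genes detected; each point sums all cells of a class, the 2 coreceptor genes were part of the CD8 gate, and the dashed line is the rule's threshold. Il10ra and Eomes are higher, and Cd8a, Cd8b1 and Il7r lower, in each step from 0 to 2, 3 and 6 genes.

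Compared within each of the 18 mice that had at least 10 members, the members had a second, broader set of genes in common. Of 8962 genes that the rule did not use, 42 (0.469%) were at least 2-fold higher on average and higher in every mouse, and 36 (0.402%) were at least 2-fold lower on average and lower in every mouse. Ratios are mean log2 ratios of CPM + 5 with their SD over 18 mice, and the added 5 CPM understates the change of low genes. Because the rule chose these cells, such counts describe the set and test nothing.

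Among regulators of transcription, Eomes had 212.5 ± 52.8 CPM in members and 48.6 ± 13.8 CPM in other CD8 T cells (ratio 2.02 ± 0.53). Ikzf2, which encodes Helios, a factor of regulatory and of innate-like CD8 T cells, had 239.2 ± 42.6 against 97.6 ± 12.5 CPM (1.24 ± 0.29). Pou2af1, a coactivator best known from B cells, was at 2.08 ± 0.45, and Jdp2, an AP-1 family repressor, at 1.42 ± 0.49. The TCF-1 gene Tcf7, the mark of stem-like cells, differed little, with 690 ± 62.5 CPM against 536.9 ± 20.3 CPM (0.35 ± 0.09, higher in 18 of 18 mice). Tox, a factor of exhaustion and of chronic antigen stimulation, was at 0.86 ± 0.23. Id2 (−1.02 ± 0.58) and Bhlhe40 (−1.32 ± 0.56), regulators of effector and tissue-resident cells, were lower in every mouse. Over the 12 stem and memory transcription factors measured, 0 passed 2-fold, with a median of 0.25 beside −0.05 over all genes.

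Receptors and adhesion genes divided the members from other CD8 T cells in both directions. Il10ra had 192.9 ± 68.9 CPM in members, against 33.8 ± 14 CPM in other cells (2.34 ± 0.51). Gpr183, an oxysterol receptor that positions lymphocytes in the node, was at 1.28 ± 0.42, and the inhibitory receptor Tigit at 1.35 ± 0.62. The SLAM receptor Slamf7 (1.47 ± 0.57) and Sh2d1a (1.37 ± 0.25), the gene of SAP, an adaptor of SLAM receptors, were higher as well. Lower were Il7r (−1.95 ± 0.77), Il18r1 (−2.12 ± 0.75) and Il6ra (−1.93 ± 0.81), which encode cytokine receptor chains. The integrins Itgb1 (−1.86 ± 0.56) and Itgae (−1.84 ± 0.65), which bind matrix and epithelium, were also lower. Pdcd1, the gene of the sorted protein PD-1, had 26.6 ± 15.6 CPM in members and 23.4 ± 9.41 CPM in other cells, a ratio of 0.00 ± 0.83.

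S100a4 and S100a6 had the lowest ratios. S100a4 had 8.49 ± 9.12 CPM in members and 126.8 ± 27.7 CPM in other CD8 T cells (−3.46 ± 0.81), and S100a6 had 44.6 ± 30.6 against 315.3 ± 64.4 CPM (−2.95 ± 0.98), both calcium-binding proteins of effector-memory cells. The actin-capping gene Capg (−1.67 ± 0.60) and the galectin gene Lgals3 (−1.61 ± 0.78) were lower with them. Igfbp4, typical of naive CD8 T cells, was lower too, with 10.4 ± 9.79 against 81.6 ± 26 CPM (−2.71 ± 0.89), and so was Ly6a (Sca-1, −1.77 ± 0.93). Both these effector-memory genes and this naive-cell gene were thus lower in members.

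Relatives of Tubb2b, Hdac9, Pde2a and Kcnc1 were among the genes compared, and those listed for Sox4 and Myb were not. Of 8 further tubulin genes, Tubb2a was higher (71.5 ± 15 against 11.9 ± 1.86 CPM, 2.16 ± 0.26) and the other 7 did not pass 2-fold. Tubb2a is a near copy of Tubb2b, so reads may be split between them. None of 10 other histone deacetylase and sirtuin genes, 8 phosphodiesterase and cyclic nucleotide genes and 3 other potassium channel genes passed 2-fold in every mouse. Cd24a, a surface protein abundant on thymocytes and B cells, was at 2.29 ± 0.61 (49 ± 18.1 against 5.39 ± 1.68 CPM), while Rag1, Rag2 and Ptcra, which define developing thymocytes, had no UMI in the members of any of the 18 mice. Of the B cell markers, Pax5 had no UMI in these members in any group, and the summed list of 6 had 16.8 to 93.7 CPM per mouse. Its mean in members was 53 CPM in RT + αPD-L1, 35.5 in RT, 30.1 in αPD-L1 and 45.6 in Control, beside 38.3, 42, 43.6 and 44.3 CPM in other CD8 T cells, and its part in the results was not tested.

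**Figure D2:**
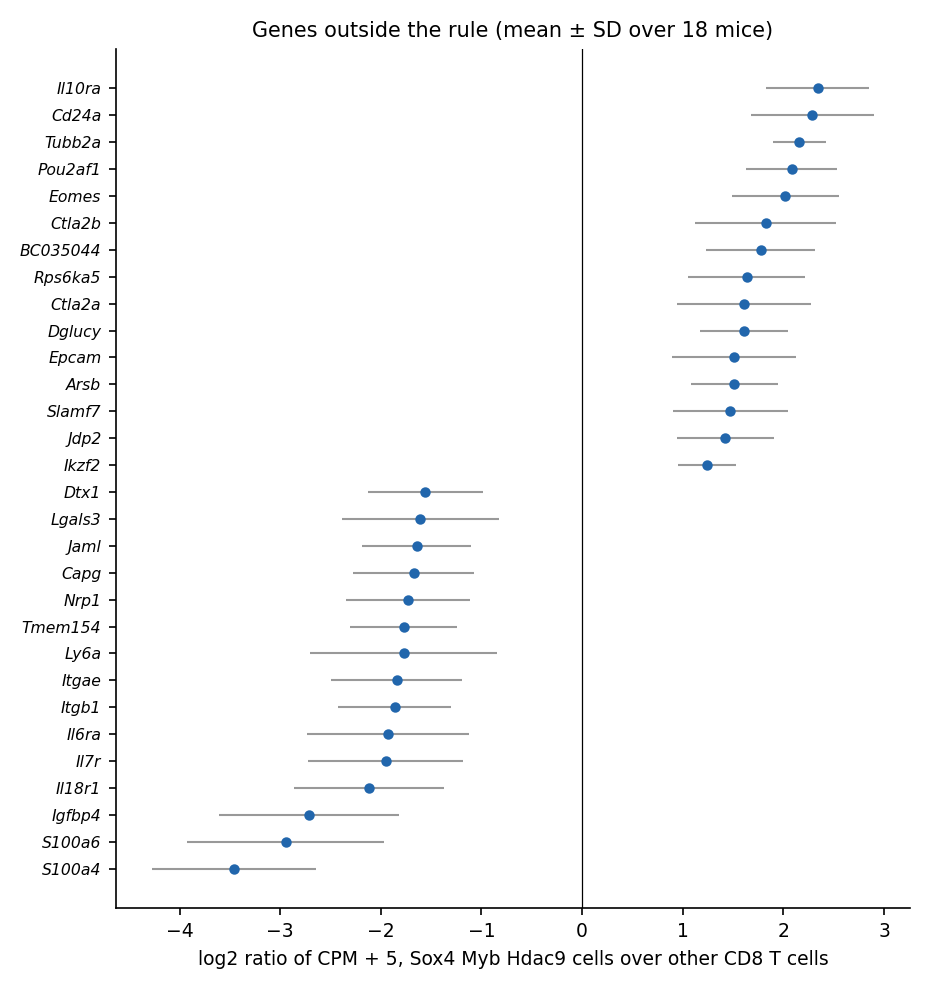
Mean log2 ratio of CPM + 5 (horizontal axis) of Sox4 Myb Hdac9 cells over other CD8 T cells of the same mouse, with the SD over 18 mice, for genes outside the rule with large differences and for Ikzf2. Il10ra, at 2.34, is the highest and S100a4, at −3.46, the lowest.

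A further 3 sets of TdLN CD8 T cells that resemble the members in part were compared with them. Of the members, 37.8% also had Tcf7 and Izumo1r without Ly6a, 15.9% had Tcf7 with Ly6a, and 0.716% had Tnfrsf4 and Nrgn, a pair found in chronically stimulated cells. Among all gated cells these shares were 27%, 24.5% and 1.42%. With members taken out of each set, Eomes averaged 212.4 ± 52.8 CPM in members (18 mice), 36.8 ± 14.6 CPM in the Izumo1r set (20 mice), 44.7 ± 20.2 CPM in the Ly6a set (19 mice) and 56.2 ± 52.5 CPM in the Tnfrsf4 set (12 mice). Tubb2a was at 71.5 ± 15 CPM in members and between 10.9 and 11.2 CPM in the other sets. Pdcd1 was at 26.6 ± 15.6 CPM in members and 137.6 ± 98.3 CPM in the Tnfrsf4 set. Tox was at 238.2 ± 39 CPM in members and 268.1 ± 43 CPM in the Tnfrsf4 set, values that overlapped within their SD. So did Tigit (74.4 ± 34.5 CPM in members and 119.5 ± 76 CPM in the Tnfrsf4 set) and Igfbp4 (10.4 ± 9.78 and 7.07 ± 14.6 CPM). Slamf7 (131.4 ± 55.1 and 95 ± 52.4 CPM) and Il10ra (192.8 ± 68.9 and 91.3 ± 76.2 CPM) overlapped as well. These genes thus do not set the members apart from the Tnfrsf4 set as they do from other CD8 T cells.

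T cell receptor V segments were spread widely over the members. All 21 Trbv segments listed had UMIs in some members, from 1.29% for Trbv23 to 34.6% for Trbv13-2, against 0.887% and 28.1% in other CD8 T cells. Trbv13-2 and Trbv12-2 (24.2% against 18.3%) were the most often detected in both sets. Members are deeper, and these shares were not matched for depth.

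For shares, the CD8 T cells of a mouse were all its barcodes with Cd3e or Cd3d, Cd8a or Cd8b1, and no Trdc or H2-Aa. They were counted before the Mki67 and granzyme gates, so they include cells that could not be members. The share of the members among these CD8 T cells was compared between treatments. It was lower after RT + αPD-L1 than in any other group: the 5 mice had 1.35%, 1.95%, 1.92%, 2.31% and 1.36% in RT + αPD-L1, against 5.14%, 3.67%, 2.81%, 2.66% and 3.43% in Control. The RT mice had 2.88%, 2.95%, 3.28%, 6.61% and 6.09%, and the αPD-L1 mice 2.58%, 3.88%, 3.17%, 2.52% and 2.23%. The RT + αPD-L1 mice did not overlap with the RT or the Control mice, and their highest mouse lay just above the lowest αPD-L1 mouse. The 6.61% of RT mouse 4 rested on 8 of 121 cells (95% Wilson interval 3.39% to 12.5%, counting error only).

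RT + αPD-L1 averaged 1.78% ± 0.41 and Control 3.54% ± 0.99 (SD, n = 5 each), a difference of −1.77 percentage points (exact two-sided permutation p = 0.00794, the smallest these numbers allow, 0.0198 after adjustment over 5 comparisons). Against RT (4.36% ± 1.83) the difference was −2.59 points (exact permutation p = 0.00794, adjusted 0.0198), and against αPD-L1 (2.88% ± 0.66) it was −1.1 points (exact permutation p = 0.0159, adjusted 0.0265). RT and Control differed by 0.82 points (exact permutation p = 0.357) and αPD-L1 and Control by −0.66 points (exact permutation p = 0.246), neither of which passed. Leaving out 1 mouse ended the call against αPD-L1 in 8 of 10 omissions (exact permutation, adjusted p = 0.0529 at most) and left the others.

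The calls, but not the direction, changed with thinning, which evens depth and also leaves fewer members. Thinning also drops cells under 3000 UMIs. Every gate is then applied to the thinned UMIs, so cells that failed a gate with all UMIs can enter. Which of these ended the calls was not tested. With each cell thinned to 3000 UMIs the mean shares were 0.715% ± 0.272 in RT + αPD-L1 and 1.24% ± 0.56 in Control, the groups overlapped, and no comparison passed (−0.52 points for RT + αPD-L1 against Control, exact permutation p = 0.0952, adjusted 0.159). The mean share in RT + αPD-L1 was 0.578 times that in Control, 0.459 times that in RT and 0.644 times that in αPD-L1 after thinning, beside 0.501, 0.407 and 0.617 with all UMIs. With 4 of the 6 genes required, the same difference was −0.67 points (exact permutation p = 0.0317, adjusted 0.0529). With all UMIs, other CD8 T cells had medians of 5928.5 UMIs in RT + αPD-L1, 6000 in αPD-L1, 6349 in RT and 6545 in Control. The part of this depth in the shares was not tested apart from thinning. A lower share can mean fewer such cells or more of the others, and these cannot be told apart here.

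**Figure D3:**
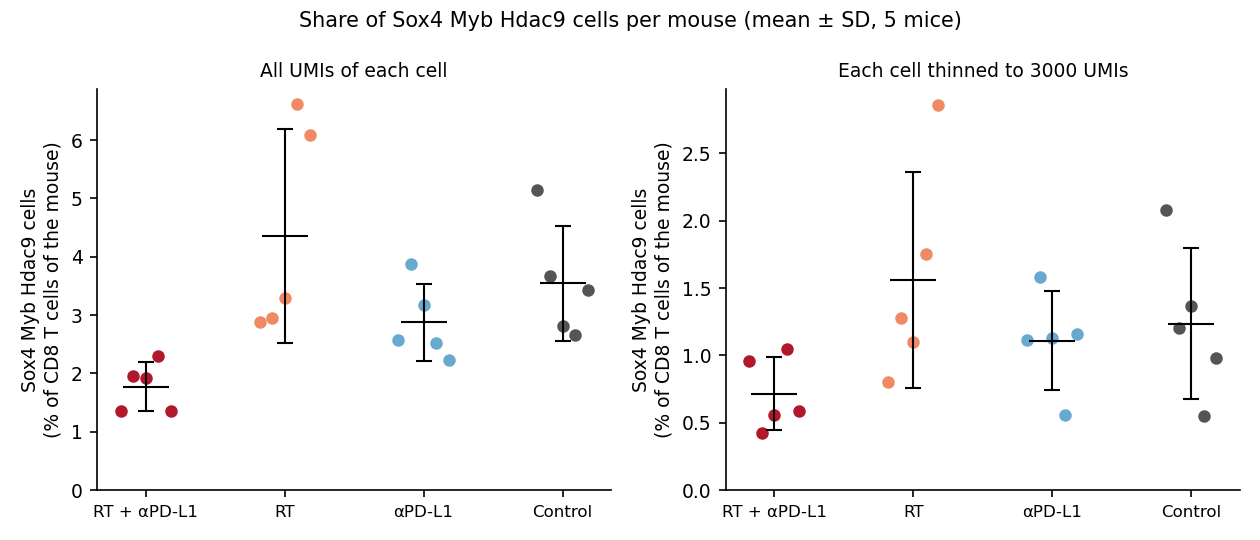
Share of Sox4 Myb Hdac9 cells among the CD8 T cells of each mouse (%, points; bars, mean ± SD of 5 mice) by treatment, with all UMIs on the left and with each cell thinned to 3000 UMIs on the right. On the left the RT + αPD-L1 mice lie between 1.35% and 2.31%, below all RT and Control mice; on the right the groups overlap.

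What each treatment changed inside the members was tested on counts summed per mouse. Interferons are cytokines that induce antiviral genes in most cell types, and the genes they induce led the response to RT + αPD-L1. Of 6474 genes, 81 (1.25%) passed an adjusted p of 0.05 between RT + αPD-L1 (4 mice) and Control (5 mice) in edgeR's quasi-likelihood test, 72 higher (1.11%) and 9 lower (0.139%). Mouse 1 of RT + αPD-L1 (6 members) and mouse 4 of RT (8 members) did not enter. In other CD8 T cells of the same mice 1573 of 11504 genes passed, a set with far more cells per mouse. Levels below are CPM on TMM-scaled libraries.

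Of 46 measured interferon-stimulated genes, 36 rose and 0 fell in the members, with a median log2 change of 1.31 beside −0.01 over all genes, and all 46 were above 0. Usp18, which removes ISG15 from proteins and dampens interferon signaling (ENSMUSG00000030107, chromosome 6, 121245906 to 121270917), had 159.4, 211.2, 68.9 and 42.2 CPM in the RT + αPD-L1 mice, against 18.6, 10.5, 12.2, 8.4 and 23.1 CPM in Control. Every RT + αPD-L1 mouse was above every Control mouse (log2 change 3.22 ± 0.37 SE, edgeR adjusted p = 1.28e-06).

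The ubiquitin-like modifier Isg15 had 268.9, 432.2, 123.4 and 67.5 CPM in RT + αPD-L1, against 31.9, 37.9, 40.5, 25.2 and 58.7 CPM in Control (2.74 ± 0.36, edgeR adjusted p = 3.37e-06). The antiviral RNA-binding genes Ifit1 (3.20 ± 0.43), Ifit3 (3.17 ± 0.40) and Ifit3b (4.37 ± 0.57) rose with it in edgeR, and DESeq2 did not call them (adjusted p = 0.0696, 0.0944 and 0.286). Ifit3 and Ifit3b are near copies, so their counts may be split. Zbp1 (1.49 ± 0.18), a sensor of Z-form nucleic acid, Irf7 (1.82 ± 0.24), an interferon regulatory factor, Slfn1 (1.32 ± 0.17), Ifi35 (1.37 ± 0.17) and the PYHIN gene Ifi208 (1.15 ± 0.16) rose as well. Ly6a, which marks stem-like and interferon-exposed T cells, had 176, 334.3, 47.2 and 126.5 CPM in RT + αPD-L1 and at most 34.7 CPM in Control (3.10 ± 0.38, edgeR adjusted p = 1.29e-06).

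Tgtp2 (1.88 ± 0.27) and Irgm1 (1.74 ± 0.26), genes of interferon-inducible GTPases, also rose. So did 2 of 15 MHC class I presentation genes, Psmb9 (0.59 ± 0.13) and Tap1 (0.61 ± 0.15), which make and carry peptides, and the feedback inhibitors Socs1 (1.09 ± 0.22) and Socs3 (1.26 ± 0.32). Cd274, the gene of PD-L1, had 29.9, 23.8, 18.1 and 8.4 CPM in RT + αPD-L1, against 0 to 7.36 CPM in Control (2.10 ± 0.49, edgeR adjusted p = 0.0116). It was tested in 11 alternatives, lost its call without RT + αPD-L1 mouse 2 (edgeR adjusted p = 0.0646) and was not tested without mouse 3. In 5 further lists (stem and memory factors, node homing receptors, cytotoxic genes, immediate early genes and cell cycle genes), 0 of 57 genes passed in edgeR, 8 had an unadjusted p under 0.05, and DESeq2 called 0. Tcf7 stood at −0.16 ± 0.09 (edgeR adjusted p = 0.724), Tox at −0.15 ± 0.13 and Ikzf2 at 0.01 ± 0.15.

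The promoters of 2 of the rising genes are shown because the interferon-stimulated genes moved together and share a known DNA element. The interferon-stimulated response element is bound by interferon-activated transcription factors, and the letters GAAA, any 2 bases and GAAA again were searched on both strands in RefSeq windows of GRCm38.p6 running from 250 bases before to 50 after each start. Matches are in capitals and adjoining ones overlap, the Isg15 window (chromosome 4, 156200769 to 156201068, minus strand) holding 3 and the Ifit3 window (chromosome 19, 34583279 to 34583578, plus strand) holding 2.
Isg15: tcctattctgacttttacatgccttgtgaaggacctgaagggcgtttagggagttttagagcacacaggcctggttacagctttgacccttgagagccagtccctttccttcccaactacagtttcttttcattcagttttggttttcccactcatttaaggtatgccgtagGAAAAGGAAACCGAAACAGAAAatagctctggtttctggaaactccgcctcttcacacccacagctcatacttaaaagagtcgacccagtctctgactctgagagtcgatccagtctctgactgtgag
Ifit3: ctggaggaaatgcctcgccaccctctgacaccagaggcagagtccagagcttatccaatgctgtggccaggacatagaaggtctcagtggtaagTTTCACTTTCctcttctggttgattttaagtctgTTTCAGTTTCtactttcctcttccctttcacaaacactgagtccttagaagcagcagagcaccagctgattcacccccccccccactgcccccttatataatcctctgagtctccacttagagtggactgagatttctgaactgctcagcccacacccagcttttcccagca
Of the 72 genes that rose, 57 were in the promoter table and 29 of these (50.9%) held the letters, against 3.99% of all 27025 genes of the table. Among the 28 matched genes on the interferon list that rose the share was 64.3%, and among the 29 other matched genes that rose it was 37.9%. A match is a description of these windows and no evidence of binding.

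**Figure D4:**
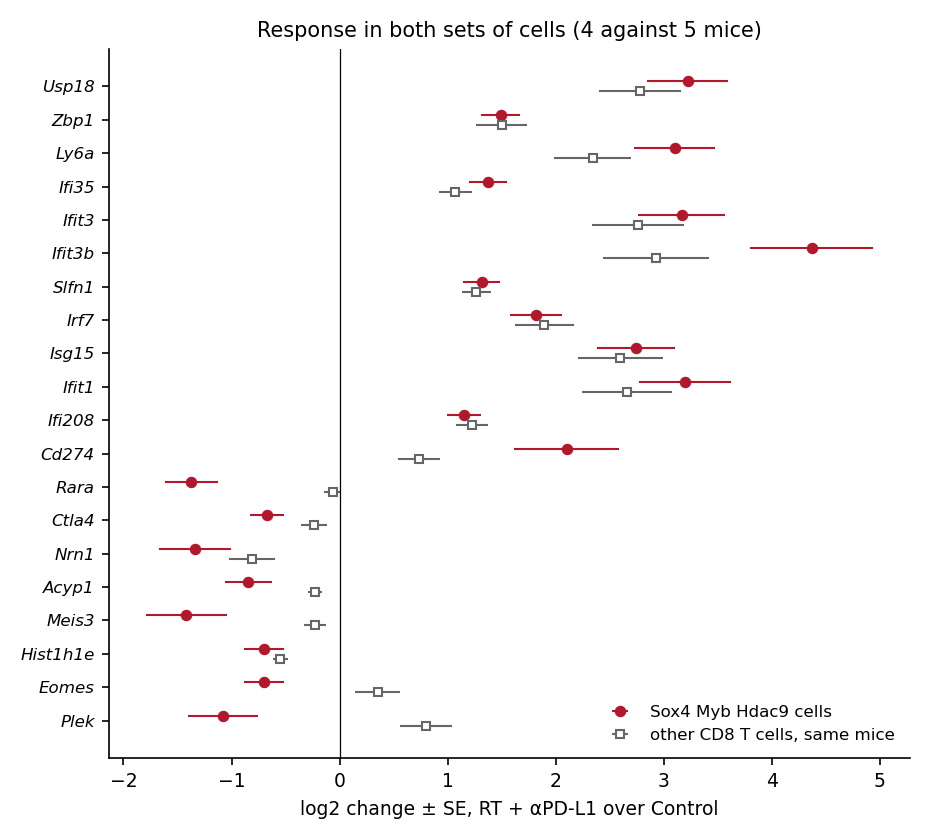
Log2 change with its SE of RT + αPD-L1 (4 mice) over Control (5 mice) on the horizontal axis, in Sox4 Myb Hdac9 cells (filled circles) and in other CD8 T cells of the same mice (open squares). The interferon-stimulated genes lie to the right in both sets of cells, and Rara, at −1.37, and Eomes, at −0.70, lie to the left in the members, a difference from other CD8 T cells that did not pass for either (edgeR adjusted p = 0.0806 each).

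The interferon-stimulated genes rose in members and in other CD8 T cells alike in direction, and no difference in size passed. Summed over the 46 genes, members had 9492, 12285, 7797 and 7313 CPM in the RT + αPD-L1 mice, against 3790 to 5048 CPM in Control, and other CD8 T cells had 8131 to 17147 CPM against 3971 to 6315 CPM. In one fit over both sets, with the mouse as a block, 0 of the 46 genes had a difference in response that passed in edgeR (lowest adjusted p = 0.465, 8 at an unadjusted p under 0.05), and the median difference of members minus other cells was −0.13 on the log2 scale, from −0.69 to 1.31. The rise leaned on 1 mouse in number of calls but not in direction: without RT + αPD-L1 mouse 3, which had the highest summed level, 40 genes passed in the members, 23 of them interferon-stimulated, with Usp18 at 2.71 (edgeR adjusted p = 0.000445). With the rule and its gates applied to UMIs thinned to 3000, 14 genes passed, 10 of them interferon-stimulated. DESeq2 called 44 genes, all of them among the 81.

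The 9 genes that fell were outside the interferon list, and they included Rara, Eomes, Ctla4 and Nrn1. Rara, the retinoic acid receptor α (ENSMUSG00000037992, chromosome 11, 98927818 to 98974942), had 19.9, 23.8, 21.8 and 25.3 CPM in RT + αPD-L1, against 69.2, 54.7, 56.7, 33.6 and 60.8 CPM in Control, with no overlap (−1.37 ± 0.24, edgeR adjusted p = 0.000381). In other CD8 T cells Rara was at −0.06 ± 0.08 (edgeR adjusted p = 0.644). The Rara call was lost in 3 of 27 alternatives, with 4 of 6 genes (edgeR adjusted p = 0.506), with the rule after thinning (0.4) and with another hashtag caller (0.053).

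Eomes had 176, 116.1, 123.4 and 253.1 CPM in RT + αPD-L1, against 193, 314.5, 231, 184.9 and 245.4 CPM in Control. The groups overlapped through RT + αPD-L1 mouse 5, whose 13 members had the second highest value of these 9 mice (−0.70 ± 0.19, edgeR adjusted p = 0.0483). This call was lost in 14 of 27 alternatives, among them DESeq2 (adjusted p = 0.135), and the largest p came without RT + αPD-L1 mouse 3 (−0.49, edgeR adjusted p = 0.645). Leaving out RT + αPD-L1 mouse 2 or 4, RT mouse 3, αPD-L1 mouse 1, 2, 3 or 4, or Control mouse 2, 3 or 5 also ended it (edgeR adjusted p from 0.0518 to 0.308). Ctla4, an inhibitory receptor, had 106.2, 111.9, 134.2 and 177.1 CPM in RT + αPD-L1, against 201, 191.4, 194.5, 159.7 and 218.1 CPM in Control (−0.67 ± 0.16, edgeR adjusted p = 0.0136, 0.325 without RT + αPD-L1 mouse 3 and 0.0875 without mouse 2).

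Nrn1, which accompanies anergy and chronic stimulation, was at −1.34 ± 0.33 (23.8 ± 8.38 CPM in RT + αPD-L1 and 65.4 ± 25.1 CPM in Control, SD), and it was lower in other CD8 T cells too (−0.81, edgeR adjusted p = 0.0145). Meis3, a homeobox gene, was at −1.42 ± 0.37, the acylphosphatase gene Acyp1 at −0.84 ± 0.22 and the linker histone gene Hist1h1e at −0.70 ± 0.19. Each of these 4 lost its call in 10 or more alternatives. AY036118 (−0.67 ± 0.12) and 1 predicted gene completed the 9, and AY036118 was lower than in Control in other CD8 T cells too (−0.34, edgeR adjusted p = 0.000198).

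A difference between the responses of members and other CD8 T cells to RT + αPD-L1 passed for 1 of 6474 genes (0.0154%). In the same edgeR fit 555 genes had an unadjusted p under 0.05. Plek, the gene of pleckstrin, a protein kinase C substrate of blood cells (ENSMUSG00000020120, chromosome 11, 16971206 to 17052381), had 19.9, 29.4, 10.9 and 25.3 CPM in members of RT + αPD-L1 mice, against 39.9, 64.2, 36.5, 42 and 46.1 CPM in Control, and the groups did not overlap. In other CD8 T cells it averaged 22.9 ± 5.28 CPM in RT + αPD-L1 and 13 ± 3.34 CPM in Control. The difference of the log2 changes was −1.90 ± 0.37 (edgeR adjusted p = 0.0413). The member change alone, −1.08 ± 0.32, did not pass (edgeR adjusted p = 0.108), and the difference lost its call in 9 of 22 alternatives: with 4 of 6 genes (edgeR adjusted p = 0.78), with another hashtag caller, and without RT + αPD-L1 mouse 2, 3 or 4 or Control mouse 1, 2, 3 or 5 (edgeR adjusted p from 0.0712 to 0.269). The next 2 genes were Eomes (−1.10 ± 0.23) and Rara (−1.21 ± 0.26), each with an edgeR adjusted p of 0.0806, which did not pass.

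Few genes were called for RT or αPD-L1 alone in the members. Against Control, RT had 1 called gene of 6474 (0.0154%), AY036118 (−0.65 ± 0.11, edgeR adjusted p = 0.0102), with 264 genes at an unadjusted p under 0.05, and this call was lost without RT mouse 3 (edgeR adjusted p = 0.192) or Control mouse 5 (0.178). αPD-L1 had 3 (0.0463%), of which AY036118 and 1 predicted gene were lower (0.0309%) and Il10ra was higher (0.0154%), with 384 genes at an unadjusted p under 0.05. AY036118 was lower in other CD8 T cells too, at 707.4 ± 52.6 CPM in RT and 600.4 ± 39.5 CPM in αPD-L1, beside 898.7 ± 21.3 CPM in Control (SD). Each group was 1 library, so a treatment effect on it cannot be told apart from library.

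Il10ra (ENSMUSG00000032089, chromosome 9, 45253837 to 45269149), itself one of the genes that set the members apart, had 215.8, 306.4, 223.3, 331.2 and 290.5 CPM in the αPD-L1 mice, against 174.3, 154.6, 97.3, 84 and 140.5 CPM in Control. Every αPD-L1 mouse was above every Control mouse (0.96 ± 0.17, edgeR adjusted p = 0.00252), and DESeq2 gave an adjusted p of 7.68e-05. The call was lost with 4 of 6 genes (0.29, edgeR adjusted p = 1), with the rule after thinning (0.56), with another hashtag caller (edgeR adjusted p = 0.145) and without αPD-L1 mouse 2 (edgeR adjusted p = 0.0584). In other CD8 T cells Il10ra was at 0.70 (edgeR adjusted p = 0.189). RT + αPD-L1 members had 182.6, 183.2, 185 and 253.1 CPM, all above Control, but the change of 0.43 ± 0.19 did not pass (edgeR adjusted p = 0.487). RT members had 97.5, 240.1, 237.6 and 205.4 CPM, which overlapped with Control (0.53 ± 0.17, edgeR adjusted p = 1).

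Ccl5, a chemokine of effector cells, and Gzmk, the granzyme of early effector-memory cells, did not pass after αPD-L1, and their calls depended on the setting. Ccl5 had 1834, 204, 75, 604.8 and 410.2 CPM in αPD-L1, against 162.4, 151.5, 97.3, 84 and 54.5 CPM in Control (2.09 ± 0.46, edgeR adjusted p = 0.079). Gzmk was at 1.89 ± 0.42 (edgeR adjusted p = 0.079). Both passed without RT + αPD-L1 mouse 3 (edgeR adjusted p = 0.0474), and Ccl5 passed in DESeq2 (adjusted p = 0.0399) but stood at −0.01 with the rule after thinning. Their αPD-L1 mice overlapped with Control.

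**Figure D5:**
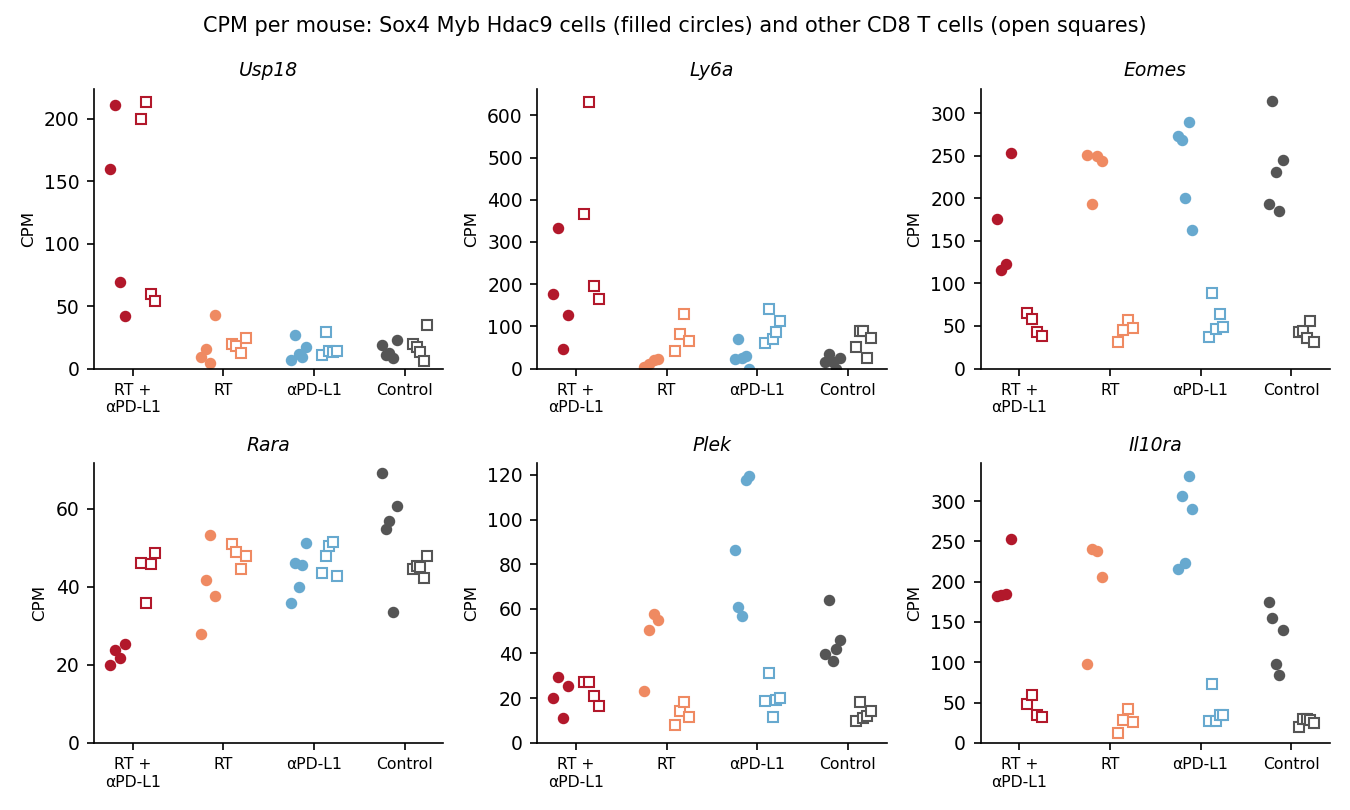
CPM of 6 genes per mouse and treatment in Sox4 Myb Hdac9 cells (filled circles) and other CD8 T cells of the same mouse (open squares), each panel with its own axis from 0. Usp18 and Ly6a are high in RT + αPD-L1 in both sets, Rara is low in the members of RT + αPD-L1 at 19.9 to 25.3 CPM, and Il10ra is high in the members of αPD-L1 at 215.8 to 331.2 CPM.

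Against either treatment alone, the members of RT + αPD-L1 again had the interferon response. Against RT, 69 genes (1.07%) were called, 66 higher (1.02%) and 3 lower (0.0463%), and against αPD-L1 87 (1.34%), 82 higher (1.27%) and 5 lower (0.0772%). These comparisons share the RT + αPD-L1 mice with the one against Control. Of the 46 interferon-stimulated genes, 36 rose against RT (median 1.26) and 40 against αPD-L1 (median 1.46). Zbp1 led both lists, at 1.65 against RT and 2.09 against αPD-L1. The genes that fell against RT were the complement regulator Cd55 (−1.06 ± 0.27), Meis3 (−1.43 ± 0.37) and the phosphodiesterase Pde7a (−0.60 ± 0.15), which lost their calls in 7 of 27, 10 of 24 and 15 of 27 alternatives. Without RT + αPD-L1 mouse 3 none of these 3 passed (edgeR adjusted p = 0.335, 0.246 and 0.154). Those that fell against αPD-L1 were Plek (−1.73 ± 0.30, edgeR adjusted p = 0.000269), the TGF-β feedback inhibitor Smad7 (−1.16 ± 0.26), Mapre2 (−0.88 ± 0.23), Eomes (−0.72 ± 0.19, edgeR adjusted p = 0.0394) and the V segment Trav14-2, which had no UMI in members of the 4 RT + αPD-L1 mice. Plek had 21.4 ± 7.99 CPM in RT + αPD-L1 and 88.2 ± 30 CPM in αPD-L1, and its call was lost in 2 of 27 alternatives, among them the rule after thinning (−0.74, edgeR adjusted p = 0.974). Smad7 lost its call in 6 of 27 alternatives, Mapre2 in 16 of 27 and Trav14-2 in 4 of 19. Without RT + αPD-L1 mouse 3, 20 genes passed against RT, all 20 higher, and 36 against αPD-L1, 35 higher and 1 lower. The lower one was Plek (−2.13, edgeR adjusted p = 0.00229), while Smad7 did not pass (edgeR adjusted p = 0.208) and the Eomes call against αPD-L1 was lost (edgeR adjusted p = 0.622).

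Levels of the rule's own genes in members are a description, since the rule fixed their detection, and are CPM without TMM scaling. Myb averaged 334.2 ± 48.8 CPM in RT + αPD-L1, 359 ± 64.8 in RT, 453.6 ± 95.9 in αPD-L1 and 392.3 ± 37.8 in Control. Sox4 averaged 196.9 ± 50.6, 271.5 ± 58.6, 275.1 ± 53.2 and 251.2 ± 46.7 CPM in the same order of groups, and Hdac9 76 ± 38.4, 81.8 ± 38.9, 126.1 ± 52.5 and 106.8 ± 15.2 CPM. For Myb and Hdac9 neighbors in the order of levels lay within the larger of their SDs. Sox4 in RT + αPD-L1 lay just over 1 SD below Control, the next group up, and their ranges (129 to 249.7 CPM and 174.5 to 300.6 CPM) overlapped.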

How the data were processed

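The deposited matrices held UMI counts per gene and barcode, with hashtag counts, which the authors made with Cell Ranger on mm10 (the matrix header names version 6.1.2). The labels give a 10x 3' v2 kit. A barcode was kept if it had between 500 and 5000 genes, no more than 40000 UMIs in all and mitochondrial genes below 10% of them. Each hashtag was split at the emptiest point below the high mode of its counts. Seurat 5.3.0's HTODemux was the alternative. Members and gene lists were chosen with earlier results of these data known. Doublets were removed only where several hashtags showed them. Counts were summed per mouse (at least 10 members) and tested with edgeR 4.0.16 (TMM scaling, filter on low counts, quasi-likelihood test, Benjamini-Hochberg adjustment over all genes), all treatments in 1 fit. The difference in response used 1 fit over both sets of cells with the mouse as a block. DESeq2 1.42.0 was an alternative. Shares were tested by exact permutation of mice (scipy 1.17.1). In simulated counts, all 100 genes changed by a log2 value of 1 and all 100 changed by 2 were recovered, with 10 unchanged genes called of 6303 tested. The fit of the difference in response recovered all of its changed genes too, with 17 unchanged genes called of 6193 tested. The changed genes were drawn only from those at 100 CPM or more in members, with the same spread for every gene. Recovery of lower genes was not simulated. Named genes were the 12 called genes with the smallest p in each direction, or the 15 highest and 15 lowest ratios to other cells with at least 20 CPM in the higher set, list members as examples, and no predicted genes. CPM are relative to the summed counts of a mouse. Member and other cells of a mouse share its library, and p-values measure the spread between mice of 1 experiment. A few genes that this rule names are not reported here.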

Additional observations from a re-analysis of the deposited data

Results flagged for a closer look

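In 76 checks of 4 or 5 mice of 1 group, 4 had a mouse that stood far from the rest by Dixon's criterion, about as many as chance gives at 1 in 20. In the members, Eomes was low in RT mouse 2, at 193.2 CPM, where the other 3 RT mice had 244.4 to 250.7 CPM. Il10ra was high in RT + αPD-L1 mouse 5, at 253.1 CPM, and Ccl5 in RT + αPD-L1 mouse 3, at 290.9 CPM. Gzmk was high in Control mouse 4, at 151.3 CPM, where the other Control mice had 8.1 to 27.3 CPM. Plek responded differently in members and other CD8 T cells to RT + αPD-L1 against Control, by −1.90 on the log2 scale (edgeR adjusted p = 0.0413).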

How the results depend on the processing

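The share in RT + αPD-L1 stayed below Control, RT and αPD-L1 under every setting run, but the calls did not all hold. Thinning to 3000 UMIs gave −0.52, −0.84 and −0.39 percentage points against Control, RT and αPD-L1, and at least 3 of the 5 genes without Myb (added after seeing the data) gave −0.70, −1.52 and −0.68, none passing after adjustment; 4 of 6 genes gave −0.67 against Control, not passing, and turned αPD-L1 against Control to 0.0261. Leaving out 1 mouse gave −1.99 to −1.37 against Control, −2.96 to −2.03 against RT, and −1.26 to −0.85 against αPD-L1, the last losing its call in 8 of 10 omissions. Genes called in the members (81 against Control, 69 against RT, 87 against αPD-L1 for RT + αPD-L1) numbered 33, 29 and 40 with 4 of 6 genes, 14, 7 and 6 with the rule after thinning, and 127, 115 and 143 with no filter on low counts. DESeq2 gave 44 against Control and 38 against RT. Leaving out 1 mouse gave 40 to 94, 20 to 83 and 36 to 99, the lowest each without RT + αPD-L1 mouse 3, and 36 of the 81 genes were called in all 18 omissions. For RT against Control the count was 2 with the rule after thinning, 0 with at most 15000 UMIs, 12 with no filter and 0 to 2 without 1 mouse. For αPD-L1 against Control it was 22 with no filter, 6 in DESeq2 and 3 to 6 without 1 mouse. Interferon-stimulated genes that rose (36) numbered 21 with 4 of 6 genes, 10 after thinning, 22 in DESeq2 and 23 to 41 without 1 mouse. Genes with a different response numbered 23, 6 and 15 with no filter for RT + αPD-L1, RT and αPD-L1 against Control, and 0 to 3, 0 to 1 and 0 to 1 without 1 mouse. Genes 2-fold apart between members and other cells (78) numbered 190 with 4 of 6 genes and 176 with the rule after thinning. In the latter, members were gated on thinned UMIs and other cells on all UMIs. The cause of these changes was not tested. No paired analysis was possible because hashtag numbers only name mice and pair none across treatments. Depth limits detection of the 6 genes, and 2 mice had too few members to be fitted.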
